A study of Mus musculus with 17 samples.

Results

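The interferon response and antigen presentation genes described here are 45 genes, chosen by symbol, of the 55357 genes in the deposited tables. They comprise 5 genes of RNA sensing, namely *Mavs* and the sensors *Ifih1*, *Rigi* (named *Ddx58* in the files), *Dhx58* and *Tlr3*, 6 transcription factors, 24 effector genes and 10 genes of class I antigen presentation. All 45 were found in the files, 44 by symbol and *Rigi* by its gene identifier, and all 45 passed the filter on low counts.

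The samples were β cells sorted for tdTomato from islets of male mice on a C57BL/6 background, after islets had been cultured for 72 h with glucose at 2.8 mM (low) or 16.7 mM (high). Control cells, labelled WT, carried the RIP-Cre transgene, in which the insulin promoter drives Cre, and the Cre-inducible tdTomato reporter, and gave 3 samples at 2.8 mM and 4 at 16.7 mM. Pcbp2βKO cells, labelled PCBP2KO, carried in addition the loxP alleles of *Pcbp2* (RIPCre+;Pcbp2Fl/Fl;Tdtomato) and gave 5 samples at each concentration. Both genotypes thus shared Cre, the reporter and the sort, and the age of the mice was not given for this experiment. Whether the samples of a group came from separate mice is not stated in the labels, so p values measure the spread between these samples, which may be technical in part.

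Cells sense viral RNA in the cytosol with RIG-I (*Rigi*) and MDA5 (*Ifih1*), which signal through the mitochondrial adaptor MAVS to the transcription factors IRF3 and IRF7 and so to type I interferon. Secreted interferon acts through JAK kinases and a complex that includes STAT2 and IRF9 on interferon-stimulated genes, and IRF1 takes part in the response to interferon-γ. Class I molecules, made of a heavy chain (*H2-K1*, *H2-D1*) and β2-microglobulin (*B2m*), present peptides that the immunoproteasome (*Psmb8*, *Psmb9*) cuts and the TAP1 and TAP2 transporter carries into the endoplasmic reticulum. β Cells that display more class I are known from type 1 diabetes, in which CD8+ T cells attack them. PCBP2 is known to recruit the ubiquitin ligase ITCH to the MAVS protein and so to promote its degradation, an action on the protein that messenger RNA does not measure.

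The samples held between 47385513 and 82419400 estimated counts each. *Pcbp2* itself was measured at a mean of 62.5 ± 11.4 CPM (counts scaled to a library of 1000000, SD, n = 3) in control and 17.4 ± 1.39 CPM (SD, n = 5) in Pcbp2βKO cells at 2.8 mM, and at 40.4 ± 5.27 CPM (n = 4) and 7.66 ± 1.68 CPM (n = 5) at 16.7 mM. The genotypes did not overlap at either concentration (exact permutation test, two-sided, p = 0.0357 and p = 0.0159, the smallest values these group sizes allow). Transcripts of the 10 β cell markers summed to 119000 to 123200 CPM in control and 67330 to 97380 CPM in Pcbp2βKO cells at 2.8 mM. At 16.7 mM the sums were higher in both genotypes, 272000 to 526100 CPM and 359000 to 475300 CPM. Not every β cell marker rose, and the mean of *Ucn3* was lower at 16.7 mM in both genotypes. Acinar and stellate markers summed to at most 0.327 CPM and 5.09 CPM. Transcripts of the other islet cells were present: the 4 α cell markers summed to 530 to 2601 CPM in control and 950 to 9404 CPM in Pcbp2βKO samples, the 2 δ cell markers to 78.2 to 276 CPM and 73.1 to 945 CPM, and *Ppy*, the hormone of PP cells, was at 224 to 835 CPM and 290.3 to 5112 CPM, with the highest values of all 3 in Pcbp2βKO cells at 2.8 mM. Principal components were computed on 13079 genes, and the first held 49.7% of the variance. Along it, 3 of the samples at 16.7 mM stood apart, between the other samples at 16.7 mM and those at 2.8 mM. They were replicate 4 of control cells (4.5, against 48.5 to 50.6 for the other 3) and replicates 4 and 5 of Pcbp2βKO cells (8.8 and 11.3, against 45.8 to 49.5). The number of genes called with glucose is given with and without these 3 samples, and results of single genes without them only in part.

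Many interferon-stimulated genes carry in their promoters an interferon-stimulated response element, the ISRE, or a gamma-activated sequence, the GAS. Promoters of 300 bases, 250 before and 50 after a gene's start, were in the RefSeq table for 34 of the 45 genes (GRCm38.p6). The core letters of the ISRE, GAAANNGAA on either strand, were found in 17 of these 34 genes (50%), against 8.56% of all 32851 promoters in the table. The letters of the GAS, TTCNNNGAA, which read the same on both strands, were found in 8 of the 34 (23.5%), against 8.30% of all promoters. The ISRE letters were in promoters of 11 of 16 effector genes and of 2 of 8 presentation genes. A gene with several promoters counted once if any held a match, whereas the share for all is per promoter. Both motifs can overlap and were counted separately, and a match describes the letters alone. The promoters below belong to genes whose levels differed between the glucose concentrations, capitals mark the bases of motif matches, and *Tap2* has no entry in the table.
B2m, chr2:122147437-122147736 (+): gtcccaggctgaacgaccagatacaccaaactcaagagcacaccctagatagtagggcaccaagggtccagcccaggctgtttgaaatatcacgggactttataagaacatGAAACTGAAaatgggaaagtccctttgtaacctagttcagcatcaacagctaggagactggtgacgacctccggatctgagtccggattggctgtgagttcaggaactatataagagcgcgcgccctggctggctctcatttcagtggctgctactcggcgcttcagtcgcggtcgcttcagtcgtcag
Tap1, chr17:34187306-34187605 (+): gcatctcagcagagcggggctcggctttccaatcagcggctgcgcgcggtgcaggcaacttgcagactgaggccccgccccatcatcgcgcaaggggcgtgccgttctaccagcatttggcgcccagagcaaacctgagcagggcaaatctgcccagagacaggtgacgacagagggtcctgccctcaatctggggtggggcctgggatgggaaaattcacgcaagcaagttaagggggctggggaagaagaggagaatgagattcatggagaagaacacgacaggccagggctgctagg
Bst2, chr8:71537423-71537722 (-): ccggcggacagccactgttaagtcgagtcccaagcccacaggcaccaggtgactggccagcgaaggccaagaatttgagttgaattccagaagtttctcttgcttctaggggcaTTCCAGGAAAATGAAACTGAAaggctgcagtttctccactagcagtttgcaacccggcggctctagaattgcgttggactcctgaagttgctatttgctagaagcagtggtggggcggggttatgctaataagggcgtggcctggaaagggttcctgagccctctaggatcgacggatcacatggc
Rsad2, chr12:26456403-26456702 (-): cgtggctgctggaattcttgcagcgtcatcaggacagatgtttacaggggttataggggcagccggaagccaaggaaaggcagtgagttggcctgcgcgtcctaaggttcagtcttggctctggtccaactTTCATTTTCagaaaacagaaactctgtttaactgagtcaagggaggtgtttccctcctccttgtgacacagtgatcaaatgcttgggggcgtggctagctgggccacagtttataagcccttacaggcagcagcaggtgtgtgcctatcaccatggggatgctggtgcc
The *B2m* promoter held 1 ISRE match from base 112 of its window. The *Bst2* promoter held a GAS match from base 115 that runs into 2 overlapping ISRE matches, from bases 121 and 127. In the *Rsad2* promoter, the ISRE letters from base 132 lie on the opposite strand. The *Tap1* window held neither motif, and 275 of its bases are shared with the window of *Psmb9*, which is transcribed from the same stretch in the other direction.

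Levels per transcript length were compared as TPM, in which the total is the same in every sample. Presentation genes held the 5 highest means of the 45 genes, though *Psmb9*, *Tap1* and *Nlrc5* ranked 14, 22 and 45. *H2-D1*, a class I heavy chain, had the highest mean over all samples, 320 TPM, followed by *H2-K1* with 248 TPM and *Tapbp*, which encodes the chaperone tapasin, with 86.5 TPM. The mean of *B2m* was 54.3 TPM, with group means from 18.8 TPM in Pcbp2βKO cells at 16.7 mM to 101 TPM in Pcbp2βKO cells at 2.8 mM, and at 16.7 mM it lay below *Ifi27* in both genotypes. *Nlrc5*, the transactivator of class I genes, was the lowest of the 10 with 0.0522 TPM. The median of the 24 effector genes was 1.48 TPM, and 11 of them had a mean under 1 TPM, among them *Isg15*, a ubiquitin-like modifier, with 0.161 TPM, and *Ifit2*, a binder of viral RNA, with 0.0674 TPM. *Ifi27* (29.2 TPM) and *Usp18* (29.0 TPM), the latter a protease that removes ISG15 and restrains the interferon receptor, were the highest effectors. The transcription factors ranged from 1.099 TPM (*Irf7*) to 18.8 TPM (*Irf1*), and the sensing genes from 1.07 TPM (*Dhx58*) to 8.0 TPM (*Mavs*).

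**Figure D1:**
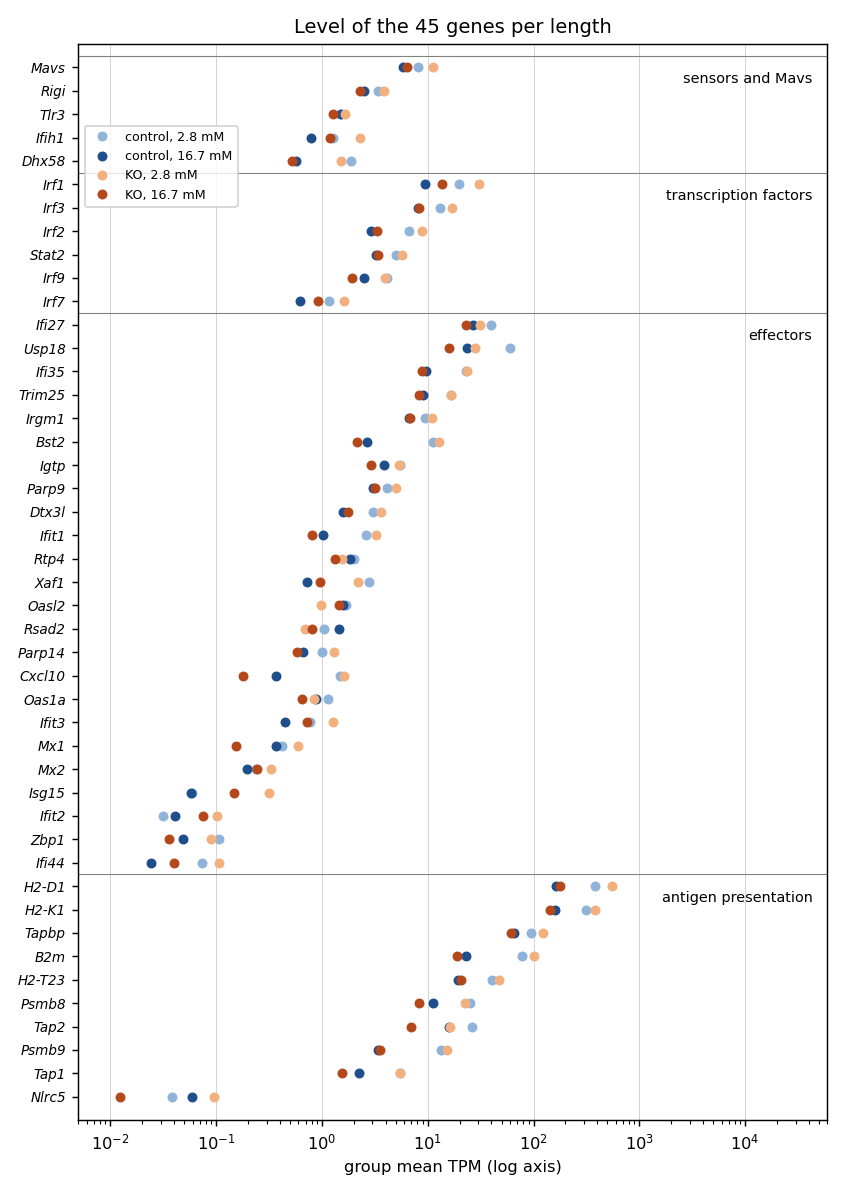
Group means in TPM on a log axis for the 45 genes, ordered within each role by their mean over all samples; each point is 1 group (light blue, control at 2.8 mM; dark blue, control at 16.7 mM; light orange, Pcbp2βKO at 2.8 mM; dark orange, Pcbp2βKO at 16.7 mM). H2-D1, H2-K1 and Tapbp had the highest means, and Nlrc5 and Ifi44 the lowest.

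None of the 11 genes for interferons (*Ifnb1*, *Ifng* and members of the *Ifna* and *Ifnl* families among them) passed the filter on low counts. The highest value of any of them in any sample was 0.142 CPM, for *Ifnk*. All 12 receptor, kinase and regulator genes listed with them passed the filter.

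The effect of *Pcbp2* loss on the sensing genes was examined first, since MAVS is a known target of PCBP2 (genotype comparisons share their sample groups with the glucose comparisons below). *Mavs* was measured at 26.4, 22.9 and 23.9 CPM in control cells and at 26.7, 27.8, 27.2, 34.6 and 35.9 CPM in Pcbp2βKO cells at 2.8 mM. The groups did not overlap, but the highest control sample and the lowest Pcbp2βKO sample were 26.4 and 26.7 CPM. At 16.7 mM, *Mavs* was at 37.8, 29.7, 28.4 and 25.1 CPM in control cells and at 40.8, 41.4, 33.6, 31.2 and 27.8 CPM in Pcbp2βKO cells, and the groups overlapped. The log2 fold change of Pcbp2βKO over control was 0.32 at 2.8 mM (95% interval −0.03 to 0.66, adjusted p = 0.44, edgeR's quasi-likelihood F test, adjusted by Benjamini-Hochberg over all genes tested, as for every adjusted p here) and 0.21 at 16.7 mM (−0.11 to 0.52, adjusted p = 0.673). Neither passed the test, and the upper bounds leave room for a rise of 0.66 and 0.52 on the log2 scale.

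Of the 4 annotated transcripts of *Mavs*, the protein-coding *Mavs-201* carried most of the estimated counts, with group means between 77.9% and 83.7% of the gene. The transcript marked for nonsense-mediated decay, *Mavs-203*, held between 7.71% and 11.7%, and the other protein-coding one, *Mavs-202*, between 7.53% and 10.4%. *Mavs-204* had at most 0.0278 CPM in any sample. At 2.8 mM, *Mavs-201* was at 19.0 ± 1.39 CPM (SD, n = 3) in control and 25.5 ± 3.94 CPM (n = 5) in Pcbp2βKO cells, without overlap (exact permutation test, two-sided, p = 0.0357, the smallest possible, and 0.214 after adjustment over the 6 tests of 3 transcripts at both concentrations). The other 5 tests gave p values between 0.27 and 0.929 (exact permutation tests).

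*Ifih1*, which encodes MDA5, was the sensing gene with the highest estimates for the knockout. It was measured at 5.995, 6.61 and 5.38 CPM in control cells and at 8.43, 11.8, 9.37, 10.8 and 10.1 CPM in Pcbp2βKO cells at 2.8 mM, and these groups did not overlap. At 16.7 mM it was at 5.79, 6.20, 4.22 and 8.74 CPM and at 9.38, 10.9, 7.81, 13.6 and 7.04 CPM, where replicate 4 of the control cells, 1 of the samples that stood apart, lay within the range of the Pcbp2βKO samples. The log2 fold changes of 0.75 (SE 0.24, adjusted p = 0.14) and 0.64 (SE 0.22, adjusted p = 0.191) did not pass the test. With the 3 samples apart left out, *Ifih1* passed at 2.8 mM (log2 fold change 0.76, adjusted p = 0.0335) and not at 16.7 mM (0.79, adjusted p = 0.0532). It also passed at 2.8 mM with DESeq2 (0.75, adjusted p = 0.0443) and, at both concentrations, with replicate number as a block, at 0.70 (adjusted p = 0.0433) and 0.75 (adjusted p = 0.0418).

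For *Rigi*, the estimates were 0.06 (95% interval −0.41 to 0.52) and 0.02 (−0.41 to 0.45). *Dhx58*, a helicase that tunes both sensors, gave −0.20 (−1.10 to 0.69) and 0.05 (−0.79 to 0.89), and *Tlr3*, the endosomal sensor of double-stranded RNA, −0.06 (−0.60 to 0.48) and 0.40 (−0.10 to 0.90). None of these passed the test, and under other settings the direction of the estimates of all 3 sensors turned.

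**Figure D2:**
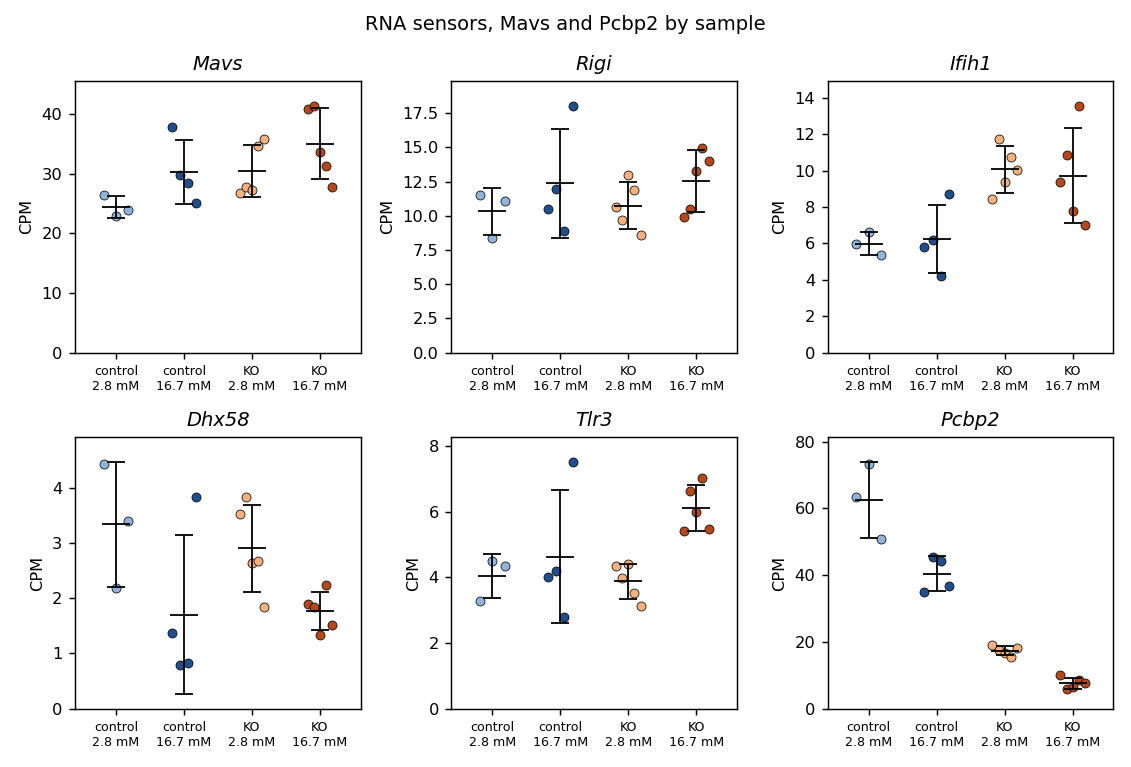
CPM of the 5 sensing genes and of Pcbp2 in each sample by group (KO, Pcbp2βKO); points are samples, the long tick is the mean and the whiskers are 1 SD. The Pcbp2 values of the genotypes are separate at both concentrations, Ifih1 is higher in the Pcbp2βKO samples at 2.8 mM without overlap, and the Mavs groups lie close together.

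Of the 45 genes, 1 was called in each genotype comparison, *Tap2*, a call requiring an adjusted p below 0.05 together with a change of more than 1.5-fold. Among all 22784 genes tested, 2.04% were called at 2.8 mM and 1.71% at 16.7 mM, and 1.78% and 1.42% were called lower, so that 1 of 45 (2.22%) is close to the share of all genes. *Tap2*, the second subunit of the peptide transporter (GRCm39, chr17:34422501-34435829, plus strand), was measured at 78.5, 66.2 and 85.0 CPM in control cells and at 41.2, 39.1, 46.7, 44.7 and 43.4 CPM in Pcbp2βKO cells at 2.8 mM. At 16.7 mM it was at 87.4, 63.2, 91.5 and 75.7 CPM in control cells and at 33.1, 34.5, 34.2, 46.97 and 40.2 CPM in Pcbp2βKO cells. Every Pcbp2βKO sample lay below every control sample at both concentrations. *Tap2* fell 1.78-fold at 2.8 mM (log2 fold change −0.83, SE 0.14, adjusted p = 0.00243) and 2.10-fold at 16.7 mM (−1.07, SE 0.13, adjusted p = 0.000119). The call held without each sample in turn and without the 3 samples apart, and was lost at 2.8 mM only when library sizes were not adjusted (−0.72, adjusted p = 0.0514). With glucose *Tap2* did not pass the test, with log2 fold changes of 0.05 (95% interval −0.26 to 0.37) in control and −0.19 (−0.45 to 0.08) in Pcbp2βKO cells.

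Because *Tap2* stood out, its transcripts were examined after its values had been seen, and are described without a test. The protein-coding *Tap2-201* and *Tap2-202*, annotated as a retained intron, carried nearly all counts. *Tap2-201* ranged from 26.3 to 38.5 CPM over the control samples and from 16.1 to 21.2 CPM over the Pcbp2βKO samples. *Tap2-202* ranged from 35.6 to 55.1 CPM and from 15.0 to 26.5 CPM. Both transcripts were thus lower in every Pcbp2βKO sample, and *Tap2-202* kept a similar share of the gene, with group means between 52.3% and 58.2%. The overlapping gene *Gm15821* was at 1.04 to 6.64 CPM in control and 0.0790 to 0.822 CPM in Pcbp2βKO samples, and *Gm20496*, which overlaps *Tap2* and *Psmb8*, was at most 0.0411 CPM. The counting is not stated to use strand, so reads of overlapping genes may be shared between them.

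Of the other presentation genes, none passed the test with the knockout. *Tap1*, the partner subunit, gave −0.19 (95% interval −0.55 to 0.17) at 2.8 mM and −0.38 (−0.71 to −0.05, adjusted p = 0.322) at 16.7 mM. *Psmb9* gave −0.01 (−0.73 to 0.72) and 0.13 (−0.54 to 0.80). The heavy chains *H2-D1* and *H2-K1* gave estimates between 0.14 and 0.36, and *B2m* 0.20 and −0.15, none of which passed. A short retained-intron transcript of *H2-D1*, *H2-D1-203*, chosen after its values were seen, ranged from 2.69 to 6.32 CPM in control and from 0.422 to 2.56 CPM in Pcbp2βKO samples, at under 1.4% of the counts of its gene.

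Among the effectors, none of 24 was called in either genotype comparison. The estimates ranged from −1.27 (*Usp18*) to 2.09 (*Isg15*) at 2.8 mM and from −1.15 (*Cxcl10*) to 1.84 (*Ifit2*) at 16.7 mM, the highest of them fitted on few counts, in genes under 1 CPM. *Oasl2*, a member of the family of oligoadenylate synthetase-like proteins, was at 3.98, 2.68 and 4.85 CPM in control and 2.50, 1.61, 1.65, 1.25 and 1.53 CPM in Pcbp2βKO cells at 2.8 mM. These groups did not overlap, and the log2 fold change of −1.17 (SE 0.34) missed the threshold with an adjusted p of 0.0879 (edgeR). *Usp18* ranged from 78.3 to 143 CPM in control and from 22.3 to 85.3 CPM in Pcbp2βKO cells at 2.8 mM, with overlap (log2 fold change −1.27, SE 0.37, adjusted p = 0.0941). Both genes were called lower with DESeq2, *Oasl2* also without the 3 samples apart, and *Usp18* also with the replicate block, without the filter and without replicate 2 of the Pcbp2βKO cells. None of the 6 transcription factors was called either, with estimates between −0.28 and 0.72 over both concentrations. Over the 45 genes, the median log2 fold change was 0.03 at 2.8 mM and 0.05 at 16.7 mM, beside 0.03 and 0.01 over all genes tested. Intervals lay within ±1 on the log2 scale for 27 of the 44 genes not called at 2.8 mM and for 28 of 44 at 16.7 mM, so that for the others a 2-fold difference was not excluded at this number of samples. Replicate 4 of control cells at 16.7 mM was the highest of its group for several genes. *Ifit3* was at 2.99 CPM there (0.481 to 0.511 CPM in the others) and *Dhx58* at 3.83 CPM (0.784 to 1.37 CPM). It was the lowest for others, such as *Usp18* (45.99 CPM, against 73.8 to 84.7 CPM). Without this sample, 3 of the 45 genes were called for the knockout at 16.7 mM, beside 2.9% of all genes.

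High glucose was next compared with low glucose within each genotype. In control cells, 5 of the 45 genes were called and all 5 were lower at 16.7 mM (11.1%, beside 13.8% of all genes called and 6.69% called lower). In Pcbp2βKO cells 12 of 45 were called, 5 higher and 7 lower (26.7%, beside 23.8% of all genes, 13.4% called higher and 10.4% lower). These shares are near those of all genes. The genotypes shared no sample in these comparisons, and 4 genes were called in both, *B2m*, *Tap1*, *Psmb9* and *Bst2*, all lower. These were 80.0% of the 5 and 33.3% of the 12, beside 81.8% and 47.5% for all genes called in both.

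In bulk samples, fewer cells of a type and less RNA per cell cannot be told apart, and markers of immune cells and of other islet cells moved with glucose. The 10 macrophage markers, of which *C1qa* made up most in the control samples, summed to 89.0 to 172 CPM in control cells at 2.8 mM and 39.97 to 107 CPM at 16.7 mM, and to 52.7 to 204 CPM and 21.8 to 112 CPM in Pcbp2βKO cells. The 4 class II genes summed to 1.16 to 8.97 CPM and 1.23 to 2.21 CPM in control cells, and to 2.68 to 26.9 CPM and 0.617 to 3.47 CPM in Pcbp2βKO cells. With glucose, 3 of the 10 macrophage and 1 of the 4 class II genes fell in control cells. In Pcbp2βKO cells 8 and 4 fell, and 1 macrophage marker, *C1qa*, rose. The means of *C1qa* at 2.8 and 16.7 mM were 81.6 and 70.8 CPM in control and 17.1 and 47.3 CPM in Pcbp2βKO cells. Every other macrophage marker had a lower mean at 16.7 mM in both genotypes, so the sums understate their fall. *Lyz2* was at 28.5 and 4.31 CPM in control and 89.2 and 4.14 CPM in Pcbp2βKO cells. No macrophage marker was at 0 in all samples, and the means of *Adgre1* were 0.924 and 0.211 CPM in control and 1.60 and 0.0785 CPM in Pcbp2βKO cells. In Pcbp2βKO cells, 2 of the 4 α cell markers, 1 of the 2 δ cell markers and *Ppy* also fell with glucose and 1 α cell marker rose, while in control cells 1 α cell marker rose and no other marker of these cells was called. The means in Pcbp2βKO cells at 2.8 mM and 16.7 mM were 4868 and 643 CPM for *Gcg* (glucagon), 572 and 245 CPM for *Sst* (somatostatin) and 2393 and 631 CPM for *Ppy*. Between the genotypes at 2.8 mM, the means of these markers differed as well. *C1qa* was lower in Pcbp2βKO cells, and was the only macrophage marker called. Every other macrophage, class II, α, δ and PP cell marker had a higher mean in Pcbp2βKO cells, without a call. *Gcg*, for example, was at 1512 CPM in control and 4868 CPM in Pcbp2βKO cells, and *Cd74* at 3.62 and 8.95 CPM. The part of all these markers in the genotype results above and the glucose results below was not tested.

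Of the 10 presentation genes, 3 fell with glucose in control cells (*B2m*, *Psmb9* and *Tap1*), 4 fell in Pcbp2βKO cells (these and *H2-D1*), and the others did not pass. *B2m* (GRCm39, chr2:121977957-121983594, plus strand) was at 54.9, 60.4 and 44.7 CPM in control cells at 2.8 mM and at 22.4, 27.0, 19.0 and 35.6 CPM at 16.7 mM. In Pcbp2βKO cells it was at 60.3, 80.5, 41.9, 66.3 and 58.4 CPM and at 27.4, 29.4, 15.4, 28.8 and 16.2 CPM. Every sample at 16.7 mM lay below every sample at 2.8 mM within each genotype. *B2m* fell 2.05-fold in control (log2 fold change −1.04, SE 0.26, adjusted p = 0.0117) and 2.62-fold in Pcbp2βKO cells (−1.39, SE 0.22, adjusted p = 0.000152). *B2m* overlaps *Patl2* on the opposite strand, and their reads could not be separated without strand.

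*Psmb9*, a catalytic subunit of the immunoproteasome (GRCm39, chr17:34400960-34406738, minus strand), was at 18.1, 14.8 and 16.4 CPM in control cells at 2.8 mM and at 6.11, 4.88, 3.88 and 13.4 CPM at 16.7 mM. In Pcbp2βKO cells it was at 15.8, 13.5, 17.01, 20.2 and 15.2 CPM and at 5.36, 5.15, 5.67, 11.2 and 11.4 CPM. The groups did not overlap, and the 3 highest values at 16.7 mM belonged to the 3 samples that stood apart. *Psmb9* fell 2.32-fold in control (−1.21, SE 0.36, adjusted p = 0.0286) and 2.10-fold in Pcbp2βKO cells (−1.07, SE 0.30, adjusted p = 0.0115).

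*Tap1* (GRCm39, chr17:34405996-34416199, plus strand) was at 16.8, 15.5 and 19.2 CPM in control cells at 2.8 mM and at 9.77, 11.1, 10.2 and 13.7 CPM at 16.7 mM. In Pcbp2βKO cells it was at 14.2, 15.8, 16.2, 16.5 and 12.5 CPM and at 7.80, 7.37, 7.79, 11.5 and 8.49 CPM, again without overlap. *Tap1* fell 1.53-fold (−0.62, SE 0.18, adjusted p = 0.0256) and 1.75-fold (−0.81, SE 0.15, adjusted p = 0.000586). *Tap1* and *Psmb9* overlap at their starts.

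*H2-D1* was at 933, 814 and 606 CPM in control cells at 2.8 mM and at 738, 651, 452 and 452 CPM at 16.7 mM, and these groups overlapped. In Pcbp2βKO cells it was at 1046, 1027, 994, 1113 and 862 CPM and at 770, 716, 667, 703 and 472 CPM, without overlap. The gene fell 1.52-fold in Pcbp2βKO cells (−0.60, SE 0.17, adjusted p = 0.0109), just past the threshold on the fold change, and did not pass in control cells (−0.45, SE 0.20, adjusted p = 0.138). The estimate for *H2-K1*, which resembles *H2-D1* in sequence so that reads may be split between them, was −0.21 in control (adjusted p = 0.499) and −0.31 in Pcbp2βKO cells (adjusted p = 0.145). *Tapbp* was at 0.23 and 0.06 and did not pass. The 3 and 4 presentation genes called lower were 30% and 40% of the 10, beside 6.69% and 10.4% of all genes called lower, and none was called higher. The 10 genes had median log2 fold changes of −0.35 and −0.50, beside 0.04 and 0.01 for all genes tested.

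**Figure D3:**
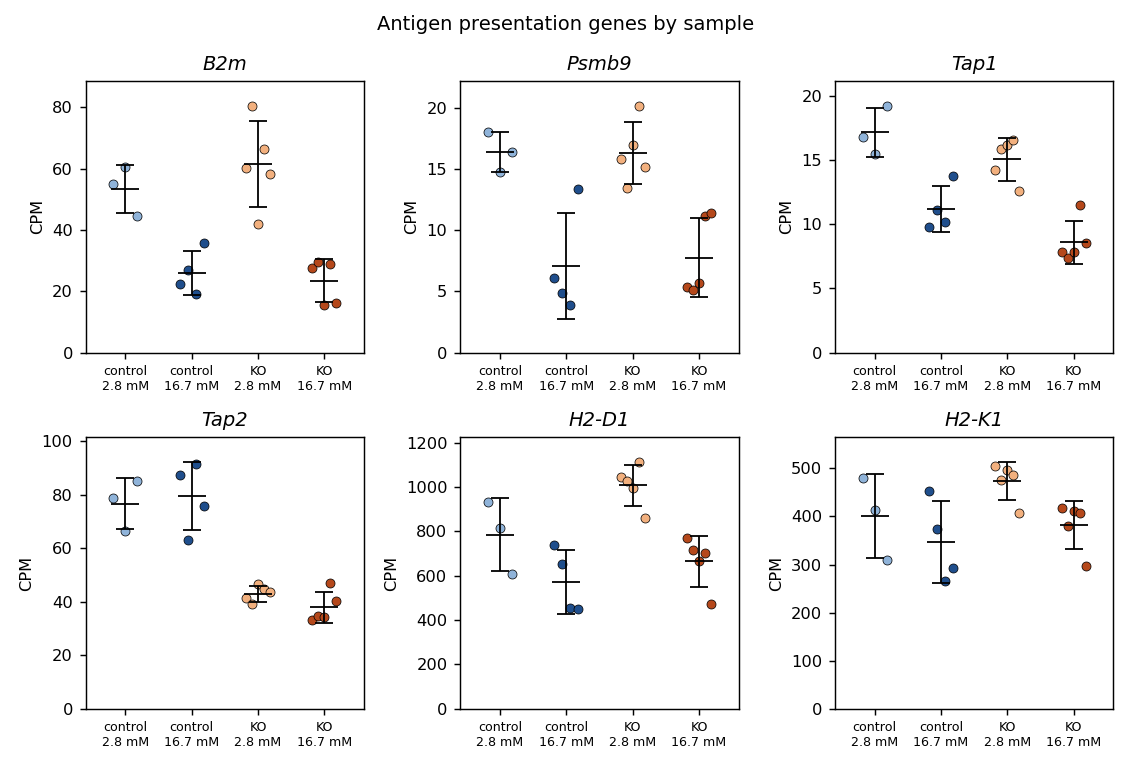
CPM of 6 presentation genes in each sample by group (KO, Pcbp2βKO); points are samples, the long tick is the mean and the whiskers are 1 SD. B2m, Psmb9 and Tap1 are lower in every sample at 16.7 mM than at 2.8 mM of the same genotype, and Tap2 is lower in every Pcbp2βKO sample.

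The effector genes went both ways with glucose. *Bst2*, which encodes tetherin (GRCm39, chr8:71986895-71990114, minus strand), was at 8.19, 8.28 and 4.03 CPM in control cells at 2.8 mM and at 3.42, 2.33, 1.29 and 3.89 CPM at 16.7 mM. In Pcbp2βKO cells it was at 7.23, 7.86, 5.79, 5.97 and 7.77 CPM and at 2.72, 1.94, 1.62, 3.16 and 2.35 CPM. *Bst2* fell 2.50-fold (−1.32, SE 0.33, adjusted p = 0.0125) and 2.93-fold (−1.55, SE 0.28, adjusted p = 0.000526), without overlap in either genotype.

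*Xaf1*, a pro-apoptotic interferon-stimulated gene, fell in control cells, from 2.67, 3.26 and 2.42 CPM to 1.17, 0.855, 0.689 and 2.05 CPM (2.33-fold, log2 fold change −1.22, SE 0.33, adjusted p = 0.0172). Its estimate in Pcbp2βKO cells was −0.39 (SE 0.27, adjusted p = 0.312), and the difference between the genotypes, 0.83 (SE 0.43), did not pass (unadjusted p = 0.0672 from edgeR across all genes, adjusted p = 1).

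*Ifit1*, which binds foreign RNA, was at 7.43, 6.25, 6.54, 7.09 and 13.7 CPM in Pcbp2βKO cells at 2.8 mM and at 4.16, 3.11, 2.17, 5.61 and 4.91 CPM at 16.7 mM, and fell 2.06-fold without overlap (−1.04, SE 0.29, adjusted p = 0.0104). In control cells *Ifit1* was at 8.09, 5.62 and 7.51 CPM and at 4.13, 2.94, 4.35 and 6.85 CPM, which overlapped, and the estimate of −0.63 (SE 0.34, adjusted p = 0.236) did not pass, though it was called lower with the replicate block and without the 3 samples apart. *Cxcl10*, a chemokine that draws T cells, was at 1.88, 1.41, 1.68, 0.954 and 1.19 CPM and at 0.0855, 0.241, 0.323, 0.402 and 0.257 CPM, and fell 5.37-fold (−2.43, SE 0.44, adjusted p = 0.000525). In control cells *Cxcl10* was at 0.995, 0.516 and 2.67 CPM and at 0.429, 0.392, 0.924 and 0.601 CPM, which overlapped (−1.24, SE 0.50, adjusted p = 0.101). *Cxcl10* overlaps the gene *Art3*.

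Against these, 4 effectors and *Tlr3* rose with glucose in Pcbp2βKO cells. *Rsad2*, which encodes the antiviral enzyme viperin, was at 2.79, 2.18, 2.08, 3.66 and 1.59 CPM at 2.8 mM and at 8.88, 3.42, 5.60, 7.65 and 4.12 CPM at 16.7 mM (GRCm39, chr12:26492745-26506451, minus strand). The groups overlapped by 1 sample, and *Rsad2* rose 2.42-fold (1.27, SE 0.31, adjusted p = 0.00461). In control cells it was at 3.97, 3.62 and 4.98 CPM and at 10.6, 4.06, 11.7 and 9.09 CPM, and the estimate of 1.084 (SE 0.38) missed the threshold (adjusted p = 0.0592). It was called higher in control cells with the replicate block, with DESeq2, with length-scaled counts and without replicate 2 at 16.7 mM.

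*Oasl2* rose 3.01-fold in Pcbp2βKO cells (1.59, SE 0.30, adjusted p = 0.000707), from the values given above to 4.62, 3.92, 3.20, 6.81 and 7.21 CPM at 16.7 mM, without overlap. *Rtp4*, a negative regulator of the interferon response, rose 1.79-fold (0.84, SE 0.29, adjusted p = 0.0393), with 0.927 to 1.63 CPM (median 1.55) at 2.8 mM and 1.43 to 3.32 CPM (median 2.75) at 16.7 mM. *Ifi27*, a mitochondrial protein, rose 1.53-fold (0.61, SE 0.17, adjusted p = 0.0104), with 16.8 to 27.0 CPM (median 19.5) and 26.3 to 35.7 CPM (median 33.0). *Tlr3* rose 1.57-fold (0.65, SE 0.22, adjusted p = 0.0337), with 3.15 to 4.41 CPM (median 3.99) and 5.42 to 7.03 CPM (median 6.01). Of these, *Rtp4* and *Ifi27* overlapped between the concentrations and *Tlr3* did not. In control cells the estimates of *Oasl2*, *Rtp4*, *Ifi27* and *Tlr3* were 0.44, 0.68, 0.27 and 0.20, and none passed.

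**Figure D4:**
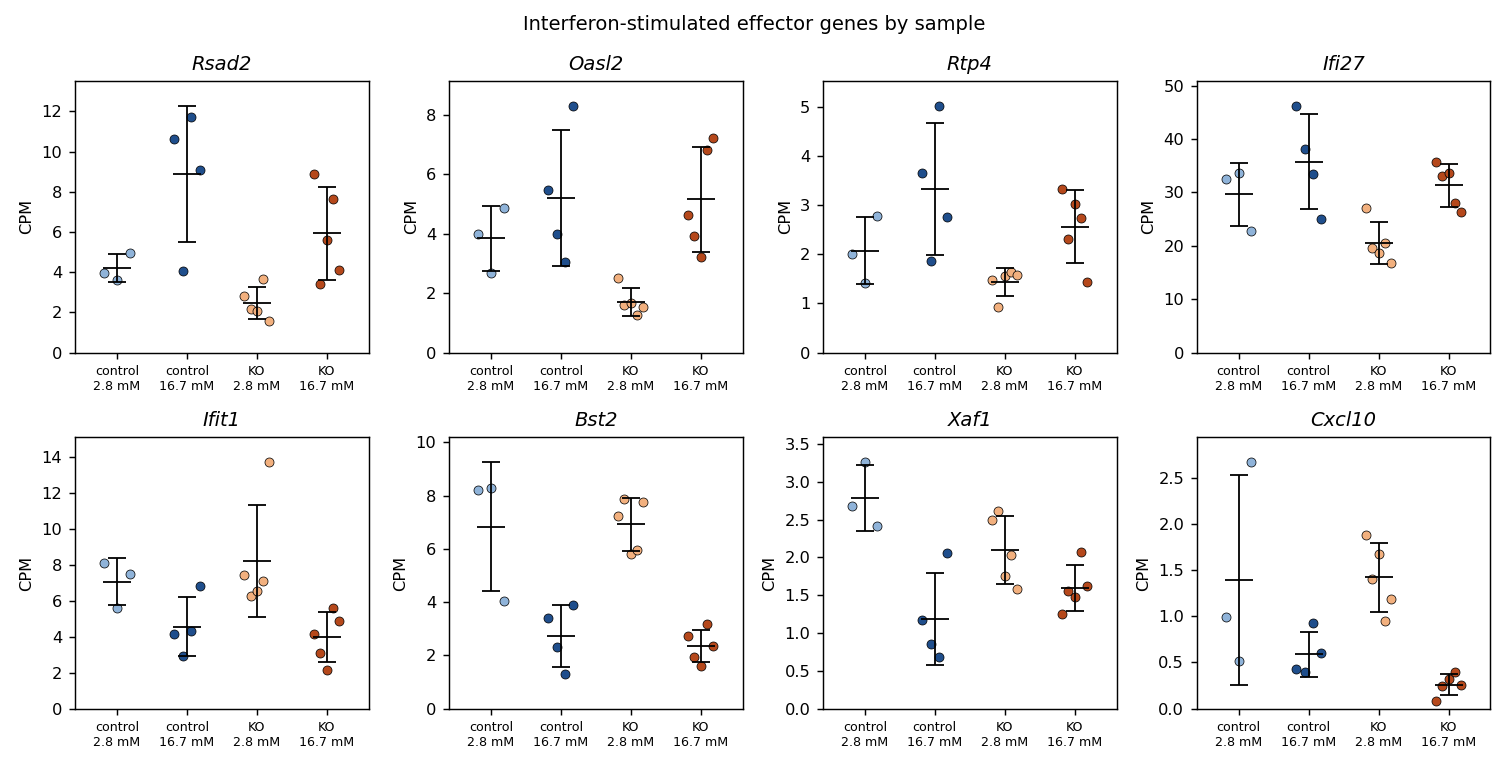
CPM of the 8 effector genes called in a glucose comparison, in each sample by group (KO, Pcbp2βKO); points are samples, the long tick is the mean and the whiskers are 1 SD. Rsad2, Oasl2, Rtp4 and Ifi27 are higher and Ifit1, Bst2 and Cxcl10 lower at 16.7 mM in Pcbp2βKO cells.

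The other effectors were not called in either genotype. *Trim25*, the ligase that activates RIG-I, was at group means between 40.3 and 43.3 CPM. *Irgm1* and *Igtp*, immunity-related GTPases, were at group means of 19.8 to 26.5 CPM and 9.54 to 12.9 CPM. *Isg15*, *Zbp1*, *Ifi44* and *Ifit2* stayed under 1 CPM in every sample, where intervals were wide. None of the 6 transcription factors was called with glucose, with estimates between −0.38 and 0.17 in control cells and −0.15 and 0.27 in Pcbp2βKO cells.

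These glucose results depended on the samples. In control cells, leaving out 1 sample left between 0 and 6 of the 45 genes called: none without replicate 2 at 2.8 mM, 2 without replicate 1 at 2.8 mM or replicate 3 at 16.7 mM, and 3 without replicate 3 at 2.8 mM or replicate 1 or 2 at 16.7 mM. The share of all genes called moved as well, between 5.79% without replicate 2 at 2.8 mM and 19.8% without replicate 4 at 16.7 mM. Same-numbered control samples deviated from their group means with correlations of 0.123 to 0.258, which does not by itself show that they pair. With replicate number as a block, 10 of the 45 were called in control cells (28.6% of all genes). These were the 5 above with *Psmb8*, *Ifit1*, *Ifit3* and *Dhx58* lower and *Rsad2* higher. Without the 3 samples apart, 8 were called in control cells (21.9% of all genes) and 13 in Pcbp2βKO cells (28.6%), of which 5 and 11 were among those above. The added genes were *Dhx58*, *Ifit1* and *Psmb8* in control cells and *Ifi35* and *Psmb8* in Pcbp2βKO cells, all lower. In Pcbp2βKO cells, leaving out 1 sample left between 9 and 12 called, and between 20.5% and 25.4% of all genes. Among the calls in control cells, *Psmb9* and *Tap1* were lost without 6 of the 7 samples, *Xaf1* without 3, *Bst2* without 2 and *B2m* without 1. In Pcbp2βKO cells *Rtp4* was lost without 8 of the 10 samples, *Tlr3* without 6, *Ifi27* without 4 and *H2-D1* without 2. *H2-D1* was also lost there without the 3 samples apart and with length-scaled counts. *Tlr3* was lost with length-scaled counts and without the filter, and *Rtp4* without the filter. All these estimates kept their direction, and the other 8 calls in Pcbp2βKO cells held without each sample in turn.

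Library scaling mattered most for the genes that rose. The summed β cell markers, mostly insulin, took a larger share of the counts at 16.7 mM, and without factors for composition the median of all genes shifted to −0.35 in control and −0.46 in Pcbp2βKO cells on the log2 scale, against 0.04 and 0.01. Under that scaling, *Oasl2* remained called in Pcbp2βKO cells (1.14), while *Rsad2* (0.79), *Rtp4* (0.33), *Tlr3* (0.18) and *Ifi27* (0.12) stayed above 0 without passing. The genes that fell kept their direction. A downward shift of all genes could not have turned them, so this does not test their fall. The split of calls in Pcbp2βKO cells moved from 5 higher and 7 lower to 1 higher and 17 lower, with 34.5% of all genes called under that scaling. With length-scaled counts, the calls in control cells were 1 higher and 4 lower. TPM, whose total is the same in every sample, holds no factors for composition either. On that scale, the mean TPM of *Rtp4*, *Tlr3* and *Ifi27* in Pcbp2βKO cells was lower at 16.7 mM than at 2.8 mM. The mean TPM of *Oasl2* and *Rsad2* was higher there at 16.7 mM. The rise of *Rtp4*, *Tlr3* and *Ifi27* thus depends on the scaling, and their TPM was not tested.

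Whether the glucose response differed between the genotypes was tested by the interaction. None of the 45 genes was called, beside 0.00439% of all genes, and 1 had an unadjusted p under 0.05 in edgeR, *Oasl2* (difference in log2 fold change 1.15, SE 0.46, 95% interval 0.18 to 2.12, unadjusted p = 0.0226 from edgeR across all genes, adjusted p = 1). DESeq2 called none of the 45 either. For *B2m* the difference was −0.35 (95% interval −1.07 to 0.36), for *Psmb9* 0.14 (−0.85 to 1.13) and for *Tap1* −0.19 (−0.68 to 0.30). Such intervals do not show that the genotypes responded alike.

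**Figure D5:**
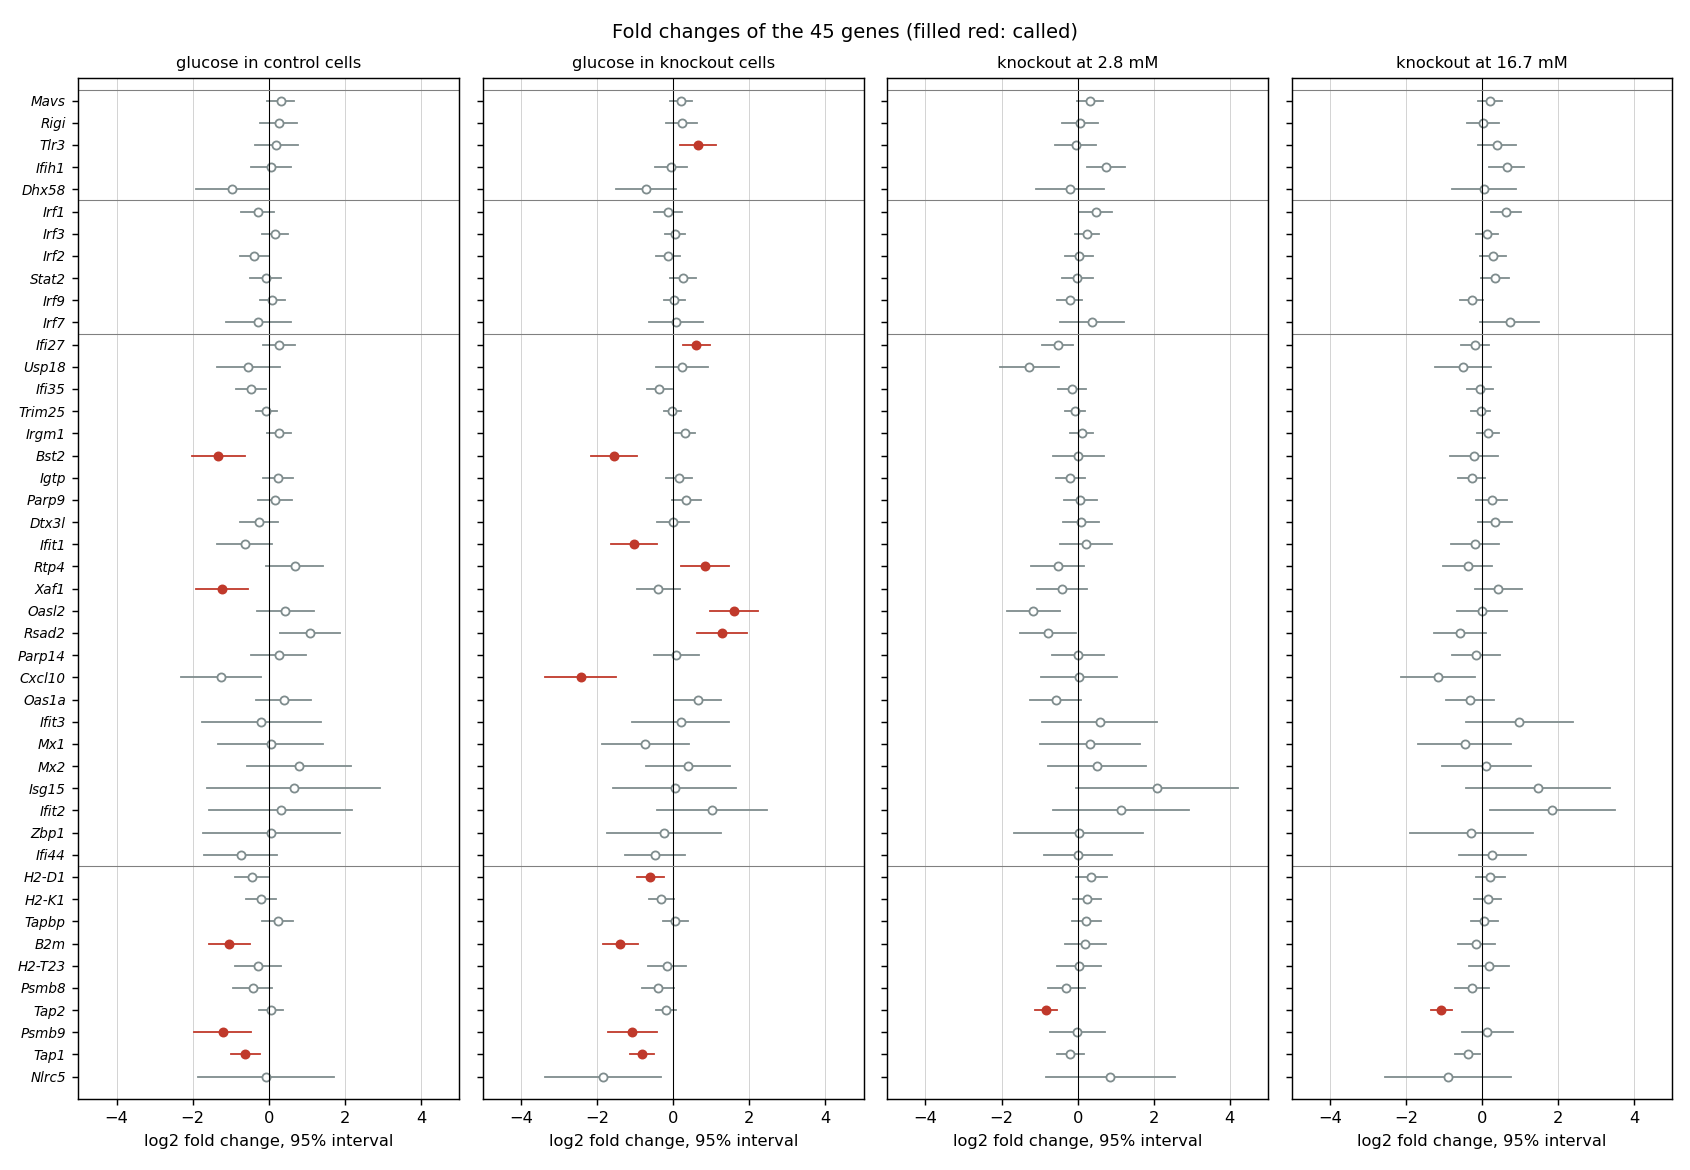
Log2 fold changes with 95% intervals for the 45 genes in the 4 comparisons (16.7 over 2.8 mM within each genotype, Pcbp2βKO over control at each concentration), by role from sensing at the top to presentation at the bottom; filled red points were called. Tap2 is the only filled point in the genotype panels, and B2m, Psmb9, Tap1 and Bst2 are filled and below 0 in both glucose panels.

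Other genes of the same pathways were counted from lists. Of the 12 receptor, kinase and regulator genes, 1 was called in control cells with glucose (higher), 3 in Pcbp2βKO cells (2 higher, 1 lower), none with the knockout at 2.8 mM and 1 at 16.7 mM (lower). The glucose calls were 8.33% and 25.0% of the list, beside 13.8% and 23.8% of all genes. *Socs3*, the feedback inhibitor of cytokine receptors, rose in both genotypes, from 2.55 ± 0.639 to 9.96 ± 4.21 CPM in control (log2 fold change 1.96, adjusted p = 0.00303) and from 3.50 ± 1.40 to 7.97 ± 1.72 CPM in Pcbp2βKO cells (1.19, adjusted p = 0.00610). The kinase *Jak2* fell in Pcbp2βKO cells (−0.74, adjusted p = 0.0209), and *Tyk2* rose (0.63, adjusted p = 0.0031). *Ifngr2*, a chain of the interferon-γ receptor, was at 21.5 ± 3.72 CPM (SD, n = 4) in control and 12.5 ± 1.96 CPM (n = 5) in Pcbp2βKO cells at 16.7 mM, and fell 1.72-fold (−0.79, SE 0.15, adjusted p = 0.00889).

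Of 25 genes downstream of MAVS or around it, 3 were called with glucose in control cells (2 higher, 1 lower) and 5 in Pcbp2βKO cells (2 higher, 3 lower), and none with the knockout. The glucose calls were 12% and 20% of the list, near the 13.8% and 23.8% of all genes. The ligase *Traf6* fell from 84.2 ± 4.47 to 47.1 ± 7.25 CPM in control (−0.84, adjusted p = 0.00201) and from 89.4 ± 11.4 to 44.0 ± 7.27 CPM in Pcbp2βKO cells (−1.02, adjusted p = 2.28e-05). *Traf3* (0.64 and 0.73) and *Ticam1*, the adaptor of TLR3 (0.70 and 0.91), rose in both. *Azi2*, an adaptor of the kinase TBK1 (−0.77), and *March5*, a mitochondrial ligase (−1.16), fell in Pcbp2βKO cells.

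Of 48 further interferon-stimulated genes, 43 were tested. With glucose 3 were called in control cells (2 higher, 1 lower) and 10 in Pcbp2βKO cells (7 higher, 3 lower). These were 6.98% and 23.3% of the 43, beside 13.8% and 23.8% of all genes. *Cmpk2*, a mitochondrial nucleotide kinase that neighbours *Rsad2*, rose from 21.9 ± 1.55 to 41.9 ± 2.42 CPM in Pcbp2βKO cells (0.93, adjusted p = 7.77e-06), and *Shisa5* rose in both genotypes (0.93 and 1.16). *Lgals3bp* (1.20), *Samd9l* (0.81) and *Slfn9* (2.61) rose in Pcbp2βKO cells. With the knockout 1 of the 43 was called at 2.8 mM, the chemokine *Cxcl11*, lower, at 0.381 ± 0.195 and 0.0393 ± 0.0347 CPM, which falls below the mean of 1 CPM set for naming and was named after its value was seen, and none at 16.7 mM.

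Of 15 further presentation genes, 2 were called in control cells (1 higher, 1 lower) and 3 in Pcbp2βKO cells (2 higher, 1 lower) with glucose, and none with the knockout. The glucose calls were 13.3% and 20% of the list, near the 13.8% and 23.8% of all genes. *Tapbpl*, a second peptide editor, rose in both genotypes, from 44.9 ± 5.10 to 98.6 ± 23.4 CPM (1.14, adjusted p = 0.00157) and from 36.8 ± 4.35 to 83.9 ± 16.5 CPM (1.19, adjusted p = 4.23e-05), and *H2-M3* rose in Pcbp2βKO cells (0.68). *Psmb10*, the further catalytic subunit of the immunoproteasome, fell in Pcbp2βKO cells (−0.77), and *Psme1*, a proteasome activator, in control cells (−0.73).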

How the data were processed

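RNA of sorted β cells was sequenced in 17 samples of 4 groups, taken from the labels. Reads were assigned by the authors to mouse transcripts (GRCm39) using Kallisto, and the deposited tables give per sample the estimated counts per transcript, not normalized between samples, and TPM, a unit that the authors' software corrects for transcript length and sums to a constant. The Kallisto version and the levels of the batch factor in the authors' model are not given in the sources used here, so no batch term was fitted.

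Estimated counts were summed per gene and rounded. Library sizes were adjusted with TMM factors (0.752 to 1.29), and a prior count of 2 entered log2 CPM. The default filter of edgeR with 4 groups left 22784 genes. A model of the 4 group means was fitted to all samples with edgeR 4.0.16 (R 4.3.3, quasi-likelihood F test, Benjamini-Hochberg over all genes tested), after tests on simulated data. Calls required an adjusted p below 0.05 together with a change of more than 1.5-fold. Each standard error is the estimate divided by the root of F. For single values, exact permutation was used in scipy 1.17.1. Alternatives were DESeq2 1.42.0, other scalings, no filter, fewer samples and a block for replicate number.

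Named genes were the sensing genes, every member called, the 3 members with the highest TPM, the member nearest to a call where a comparison had none, and up to 5 genes called per pathway list at a mean of at least 1 CPM. The members and lists were chosen with earlier results of these data known. Samples with the same number deviated from their group means with correlations of 0.123 to 0.258 between control cells at both concentrations. In every other comparison of groups at least 1 value was at or under 0.1, though the highest of all, 0.354, lay between the genotypes at 16.7 mM. Values for samples with different numbers are not given here, and what a number stands for is not stated. No replicates agreed within sampling noise. Gene positions came from GENCODE vM39 (GRCm39) by gene identifier, and promoters from RefSeq (GRCm38.p6).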

Additional observations from a re-analysis of the deposited data

Results flagged for a closer look

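Of the 60 combinations of a named gene and a group of 4 or 5 samples, 3 held a sample far from the others by Dixon's criterion at the 95% level, which chance alone meets in about 1 in 20. *Ifit1* was at 13.7 CPM in replicate 5 of Pcbp2βKO cells at 2.8 mM, against 6.25 to 7.43 CPM in the other 4. *Rtp4* was at 0.927 CPM in replicate 2 of the same group, against 1.49 to 1.63 CPM. *Tap1* was at 11.5 CPM in replicate 4 of Pcbp2βKO cells at 16.7 mM, against 7.37 to 8.49 CPM, and this sample is 1 of the 3 that stood apart on the first principal component.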

How the results depend on the processing

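The number of the 45 genes called with glucose in control cells, which was 5, became 10 without scaling factors, 10 with the replicate block, 8 without the 3 samples apart, 1 when only the control samples were fitted, and 0 to 6 when each sample was left out. In Pcbp2βKO cells it was 12, and 10 to 18 under the alternatives and 9 to 12 with a sample left out. For the knockout at 2.8 mM, where 1 was called, it was 4 with DESeq2, 0 without scaling factors, 2 without the filter on low counts, 3 with the replicate block, 3 without the 3 samples apart and 1 to 2 with a sample left out (2 without Pcbp2βKO replicate 2, where *Usp18* was added). For the knockout at 16.7 mM, where 1 was called, it was 2 with the replicate block and 1 to 3 with a sample left out (3 without control replicate 4, where *Ifih1* and *Irf1* were added). The replicate numbers were not shown to pair the samples. Over all genes, calls moved by over 1.5 times with DESeq2 for the knockout (835 against 464 at 2.8 mM, 726 against 389 at 16.7 mM) and the interaction (34 against 1), with the replicate block (5670 against 3153 for glucose in control cells, 1039 for the knockout at 2.8 mM, 17 for the interaction), without scaling factors (4837 for glucose in control cells), without the 3 samples apart (4898 for glucose in control cells, 587 for the knockout at 16.7 mM, 2 for the interaction), without the filter (15 for the interaction) and with only the groups compared (238 for the knockout at 16.7 mM). With a sample left out, they ranged from 1382 to 4480 for glucose in control cells (1382 without control replicate 2 and 1990 without control replicate 1, both at 2.8 mM), from 242 (without control replicate 3) to 492 for the knockout at 2.8 mM, from 213 (without control replicate 3) to 652 (without control replicate 4) for the knockout at 16.7 mM, and from 0 to 2 for the interaction. The interaction gave 0 of the 45 genes under every alternative run. *Mavs* kept its direction and did not pass under any alternative, with log2 fold changes of 0.15 to 0.44 at 2.8 mM and 0.19 to 0.28 at 16.7 mM, and 0.25 to 0.38 and 0.11 to 0.33 with a sample left out.

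Estimates near 0 changed sign. *Rigi* at 16.7 mM was at −0.0201 with length-scaled counts and −0.0003 with the replicate block, *Dhx58* at 0.0182 (2.8 mM, replicate block) and −0.0125 (16.7 mM, no scaling factors), and *Tlr3* at 0.0597 (2.8 mM, no scaling factors), 0.0717 (2.8 mM, replicate block) and −0.0926 (16.7 mM, length-scaled counts). *Tapbp* with glucose was at −0.17 in control and −0.44 in Pcbp2βKO cells without scaling factors. With a sample left out, the ranges were −0.0735 to 0.147 and −0.11 to 0.25 for *Rigi*, −0.435 to 0.0545 and −0.19 to 0.82 for *Dhx58*, −0.188 to 0.0256 for *Tlr3* at 2.8 mM and −0.0139 to 0.124 for *Tapbp* in Pcbp2βKO cells. The cause was not tested. Depth limits the genes under 1 CPM, whose intervals were wide.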
